A study of Mus musculus with 20 samples.

Results

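The genes of sterol and fatty acid synthesis were followed through 20 bulk RNA-seq libraries of mouse bone marrow-derived macrophages. The members were 34 gene symbols chosen by function, and all 34 were found among the 21963 rows of the count table and were tested among 11707 genes. They comprised 7 enzymes from acetyl-CoA to farnesyl diphosphate (mevalonate arm), 11 enzymes from squalene to cholesterol, 7 genes of the regulatory machinery with the sterol carrier Stard4, 4 genes of acetyl-CoA supply and fatty acid synthesis, and 5 desaturases and elongases. The study asked which macrophage genes depend on mitochondrial calcium uptake, and compared wild-type (WT) cells with Mcu-/- cells, which lack the pore subunit of the mitochondrial calcium uniporter. There were 4 WT untreated libraries, 5 of WT cells given zymosan for 3 h, 4 of WT cells given zymosan with the intracellular calcium chelator BAPTA-AM at 10 µM, 4 of untreated Mcu-/- cells and 3 of Mcu-/- cells given zymosan for 3 h. Zymosan, a yeast cell wall particle that macrophages engulf, was added at 2 particles per cell. The mice were of the C57BL/6 background and 15 to 25 weeks old. The Mcu-/- cells came from mice carrying a floxed Mcu allele deleted by a Cre driven from Cx3cr1, a gene of the monocyte and macrophage lineage, so that other cell types in a culture could keep Mcu. No Mcu-/- library and no untreated library received BAPTA-AM. The labels call the replicates biological, and do not say which came from separate animals.

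Cholesterol and fatty acids are both built from acetyl-CoA. When sterol in the endoplasmic reticulum is scarce, SCAP escorts the transcription factor precursors SREBP1 and SREBP2 to the Golgi, where proteases including MBTPS1 release the active factors, and the INSIG proteins hold this complex back when sterol is plentiful. Genes of both arms are therefore commonly read together, and in macrophages they are known to be reset by Toll-like receptor and interferon signals.

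The RefSeq promoter table (GRCm38.p6, from 250 bases before to 50 bases after a start) held a window for 27 of the 34 members. The box CCAAT, the site of NF-Y, a partner of the SREBPs, occurred on either strand in 21 of these 27 (77.8%), beside 43.1% of 9233 tested genes with a window and 41.1% of all genes with one. The GC box GGGCGG, bound by Sp1, occurred in 23 of 27 (85.2%), beside 68.8% of tested genes. A strict sterol element, TCACNCCAC, occurred in Hmgcs1 alone among the members, beside 1.36% of tested genes, and the looser form TCACNNCA, which covers the strict one, in 10 of 27 (37%), beside 13.3%. A match to letters is a description and not a bound site. Below are 5 windows, each 5′ to 3′ on the gene's strand with the CCAAT box (or its reverse complement ATTGG) and the strict element in capitals. They are the members with a window that stood out in the counts: Insig1 with the largest zymosan change, Msmo1 with the largest BAPTA-AM change, Fads2 and Mvd with the largest decreases in zymosan-treated Mcu-/- cells, and Hmgcs1, which went the other way.
Hmgcs1, chr13:119690101-119690400, plus strand: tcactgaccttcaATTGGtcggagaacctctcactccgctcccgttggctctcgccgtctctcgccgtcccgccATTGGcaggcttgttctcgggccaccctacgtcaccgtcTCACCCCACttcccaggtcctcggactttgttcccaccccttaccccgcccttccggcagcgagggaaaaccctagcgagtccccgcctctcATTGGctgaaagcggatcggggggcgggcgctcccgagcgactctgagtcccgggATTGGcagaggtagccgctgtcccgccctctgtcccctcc
Insig1, chr5:28071162-28071461, plus strand: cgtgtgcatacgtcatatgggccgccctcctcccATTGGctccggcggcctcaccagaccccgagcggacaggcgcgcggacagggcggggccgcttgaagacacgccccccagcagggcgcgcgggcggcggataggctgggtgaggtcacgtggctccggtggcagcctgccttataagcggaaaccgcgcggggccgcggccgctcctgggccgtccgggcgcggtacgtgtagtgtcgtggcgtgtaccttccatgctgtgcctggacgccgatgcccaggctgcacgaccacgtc
Msmo1, chr8:64733529-64733828, minus strand: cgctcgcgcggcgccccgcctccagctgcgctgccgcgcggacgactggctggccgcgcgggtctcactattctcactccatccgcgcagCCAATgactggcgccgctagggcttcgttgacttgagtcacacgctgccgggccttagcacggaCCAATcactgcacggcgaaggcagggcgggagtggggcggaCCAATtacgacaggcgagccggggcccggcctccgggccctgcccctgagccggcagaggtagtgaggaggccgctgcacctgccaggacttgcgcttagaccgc
Mvd, chr8:122443373-122443672, minus strand: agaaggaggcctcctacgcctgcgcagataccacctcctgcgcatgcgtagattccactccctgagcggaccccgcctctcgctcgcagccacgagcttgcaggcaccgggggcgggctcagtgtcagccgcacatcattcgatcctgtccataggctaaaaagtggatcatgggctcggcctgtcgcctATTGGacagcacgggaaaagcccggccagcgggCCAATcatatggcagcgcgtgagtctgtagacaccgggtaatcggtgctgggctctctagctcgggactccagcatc
Fads2, chr19:10101454-10101753, minus strand: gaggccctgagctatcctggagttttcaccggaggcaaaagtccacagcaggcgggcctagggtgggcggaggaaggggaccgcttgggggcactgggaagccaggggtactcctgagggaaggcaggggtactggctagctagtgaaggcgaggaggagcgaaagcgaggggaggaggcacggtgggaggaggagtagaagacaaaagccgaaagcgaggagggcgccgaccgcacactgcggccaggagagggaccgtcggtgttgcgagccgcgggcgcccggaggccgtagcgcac
The Hmgcs1 window held 4 CCAAT boxes and the strict sterol element, whose first base lay at -137 from the start. The Msmo1 window held 3 CCAAT boxes, the Mvd window 2 and the Insig1 window 1. The Fads2 window held no CCAAT box and 1 GC box.

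Library totals ran from 14.4 to 24 M counts. Levels are given as TMM-scaled counts per M (CPM), of which 1 CPM stood for 15.7 to 28.1 reads. Mcu itself lay between 6.1 and 9.55 CPM in the 13 WT libraries and between 2.63 and 4.05 CPM in the 7 Mcu-/- libraries, with no overlap. The macrophage markers (7 of 7 genes present) summed to at least 8358 CPM in every library. The 3 T cell markers in the table summed to at most 0.0853 CPM, and the 7 neutrophil markers to at most 5.41 CPM. Untreated Mcu-/- replicate 4 stood apart from the other 3 of its group: the mean chi-square per gene was 212 to 222 in the 3 pairs that include it and 1.6 to 6.3 in the 28 other pairs of libraries within a group. The common biological coefficient of variation was 12.4% with this library and 3.56% without it. Counts over the members are therefore also given without it.

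**Figure D1:**
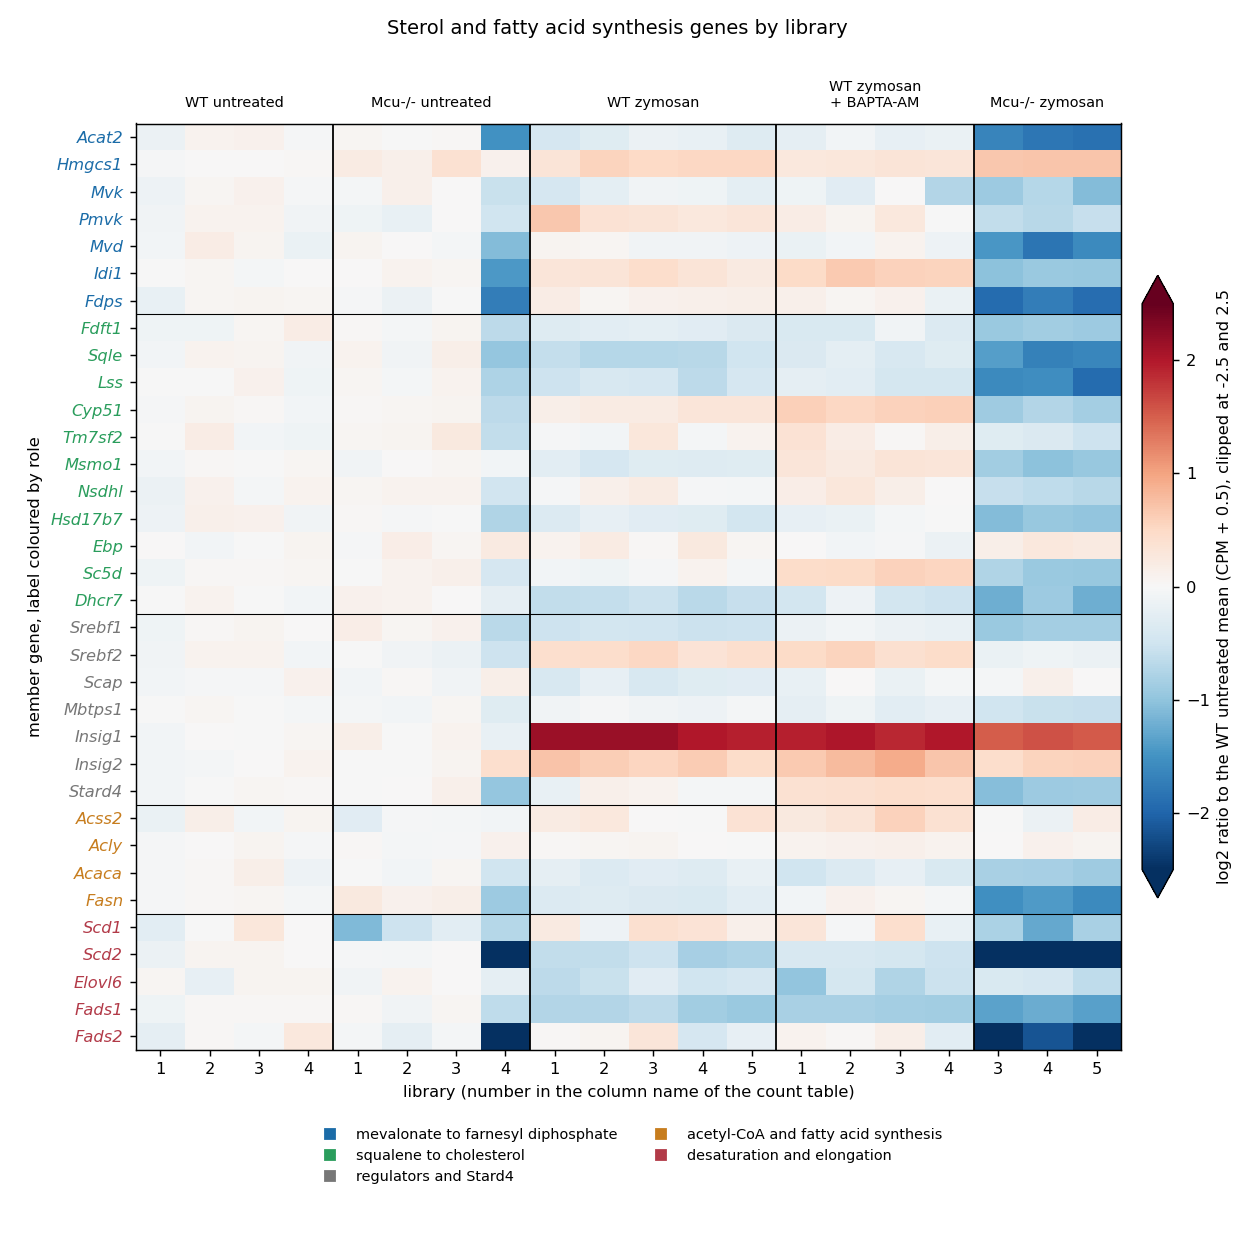
Heat map of the 34 members (rows, by role) in the 20 libraries (columns, by group), coloured by the log2 ratio of CPM + 0.5 to the WT untreated mean and clipped at -2.5 and 2.5. Untreated Mcu-/- replicate 4 is blue in most rows where the 3 Mcu-/- zymosan libraries are blue, and Insig1 is red in all 12 zymosan libraries.

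Per kilobase of exon, Scd2, a stearoyl-CoA desaturase that makes monounsaturated fatty acids, was the most abundant member in WT untreated cells at 51.3 ± 3.7 CPM per kb (SD, n = 4). Acly, which supplies cytosolic acetyl-CoA, followed at 34.6 ± 1.1 CPM per kb. Srebf2 (25.2 ± 1.7 CPM per kb) and Insig1 (25.1 ± 0.8 CPM per kb) came next and did not differ beyond their spread. The lowest were Acss2 (0.729 CPM per kb), Elovl6 (0.49 CPM per kb) and Scd1 (0.347 CPM per kb), so of the stearoyl-CoA desaturases listed Scd2 was far the more abundant. The length merges the exons of all annotated transcripts of a gene, and the order depends on it. Acss2 (10163 bases) read 7.41 CPM in WT untreated cells, above Fads2 (3295 bases) at 7.12 CPM. In zymosan-treated Mcu-/- cells the order per kilobase was led by Insig1 (73.5 ± 2.3 CPM per kb), Acly (36.2 ± 1.3 CPM per kb) and Srebf2 (22.8 ± 0.42 CPM per kb, n = 3 for each), and Scd2 stood at 1.93 CPM per kb.

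The first comparison asked what zymosan alone did to these genes in WT cells. Members were called in both directions, and the median member lay near 0. The SREBP2 gene and the feedback inhibitors Insig1 and Insig2 rose under TMM scaling (Insig1 alone under library totals). From squalene to cholesterol 6 of 11 enzymes fell. Of 34 members 6 rose and 12 fell in edgeR's quasi-likelihood test at an adjusted p under 0.05, where 69.1% of all genes passed (32.4% higher and 36.8% lower). The share of members called (52.9%) was thus below that of all genes. The members' median log2 fold change was -0.041, beside -0.044 for all genes tested. For 21 members (61.8%) no library of one group reached into the range of the other, beside 69.5% of all genes. Without untreated Mcu-/- replicate 4, whose spread enters the shared estimate, 9 rose and 15 fell, beside 78.5% of genes called (37.2% higher and 41.3% lower).

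Among the regulators, Insig1, which retains the SCAP complex in the endoplasmic reticulum and is itself an SREBP target, changed most. Its WT untreated libraries read 74.3, 78.4, 77.1 and 80.2 CPM and its WT zymosan libraries 345, 350, 349, 313 and 301 CPM. Every zymosan library was thus far above every untreated one, a 4.28-fold rise (log2 2.10 ± 0.06 SE, edgeR adjusted p = 7.1e-16). Its homologue Insig2 read 19.4, 19.5, 20.5 and 21.7 CPM untreated and 33.5, 31.3, 29.6, 31.8 and 27.8 CPM with zymosan, again without overlap (log2 0.61 ± 0.09, adjusted p = 3.9e-06). Srebf2, the gene of SREBP2, rose from 170, 191, 192 and 172 CPM to 242, 246, 258, 230 and 241 CPM (log2 0.43 ± 0.08, adjusted p = 5.39e-05). Srebf1, the gene of SREBP1, went the other way, from 79.6, 87.9, 90.7 and 86 CPM to 60.2, 62.7, 61.7, 59.4 and 59.9 CPM. The groups did not overlap (log2 -0.50 ± 0.11, adjusted p = 5.18e-04). Scap fell from 30.6 ± 1.62 to 24.5 ± 1.47 CPM (SD, n = 4 and 5, log2 -0.32 ± 0.06, adjusted p = 1.38e-04), while Mbtps1 and Stard4 did not pass (log2 -0.08 and -0.01).

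In the mevalonate arm 2 of 7 enzymes rose (28.6% called, beside 69.1% of all genes). Hmgcs1, the enzyme that makes HMG-CoA, read 42.8, 43.8, 43.7 and 44.4 CPM untreated and 54.6, 64.5, 61.9, 62.9 and 62.8 CPM with zymosan (log2 0.49 ± 0.05, adjusted p = 1.14e-07). All 5 zymosan libraries lay above the untreated ones. Pmvk, phosphomevalonate kinase, rose by a log2 of 0.40 ± 0.10, and without untreated Mcu-/- replicate 4 Idi1 (0.33) and Fdps (0.12) were called higher and Acat2 (-0.29) and Mvk (-0.22) lower. Of the 11 enzymes from squalene to cholesterol, 6 fell and 1 rose (63.6% called, beside 69.1% of all genes). Sqle, squalene epoxidase, fell from 45, 50.5, 49.3 and 44.4 CPM to 30.9, 28.5, 28.5, 29 and 33.2 CPM (log2 -0.66 ± 0.15, adjusted p = 6.36e-04). Dhcr7, which completes cholesterol from its precursor, fell from 22.8, 24.4, 22.9 and 21.7 CPM to 14.8, 14.9, 15.7, 14.1 and 15.3 CPM (log2 -0.62 ± 0.09, adjusted p = 4.08e-06). In both genes every zymosan library was below every untreated one. Lss (-0.49), Hsd17b7 (-0.33), Msmo1 (-0.32) and Fdft1 (-0.31) fell by less. The call on Hsd17b7 was lost without WT untreated replicate 2 or 3, and that on Fdft1 without WT untreated replicate 4. Ebp (0.13) was called higher without untreated Mcu-/- replicate 4 and with DESeq2. Cyp51, lanosterol demethylase, rose slightly (0.24), a call lost when any 1 of 15 of the 20 libraries was left out.

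Among the 9 genes of fatty acid synthesis and desaturation, 4 fell (44.4% called, beside 69.1% of all genes). No rise passed in edgeR or DESeq2, nor at an unadjusted p under 0.05 in edgeR. Fads1, the delta-5 desaturase of polyunsaturated fatty acids, fell from 72, 79.3, 79 and 79.1 CPM to 46.4, 46.1, 48.6, 41.9 and 40.6 CPM (log2 -0.79 ± 0.10, adjusted p = 7.98e-07). No zymosan library reached an untreated one. The elongase Elovl6 (-0.57), the fatty acid synthase gene Fasn (-0.34) and the acetyl-CoA carboxylase gene Acaca (-0.28) fell too, and the call on Fasn was lost when any 1 of 16 of the 20 libraries was left out and with DESeq2. Scd2 fell from 251, 295, 294 and 282 CPM to 183, 183, 196, 158 and 163 CPM without overlap (log2 -0.66 ± 0.40), which did not pass with all 20 libraries under TMM. It passed without untreated Mcu-/- replicate 4 (SE 0.04), with the 2 groups compared alone and under library totals (-1.16). Scaling by library totals instead of TMM moved the median of all genes by -0.49 in this comparison, and 1 member then rose (Insig1) and 25 fell. The rises of Hmgcs1, Srebf2, Pmvk and Cyp51 are therefore relative to the TMM-scaled median gene, and under library totals their log2 changes were -0.00058, -0.066, -0.091 and -0.26. Insig2 kept its direction under library totals but did not pass (0.11).

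**Figure D2:**
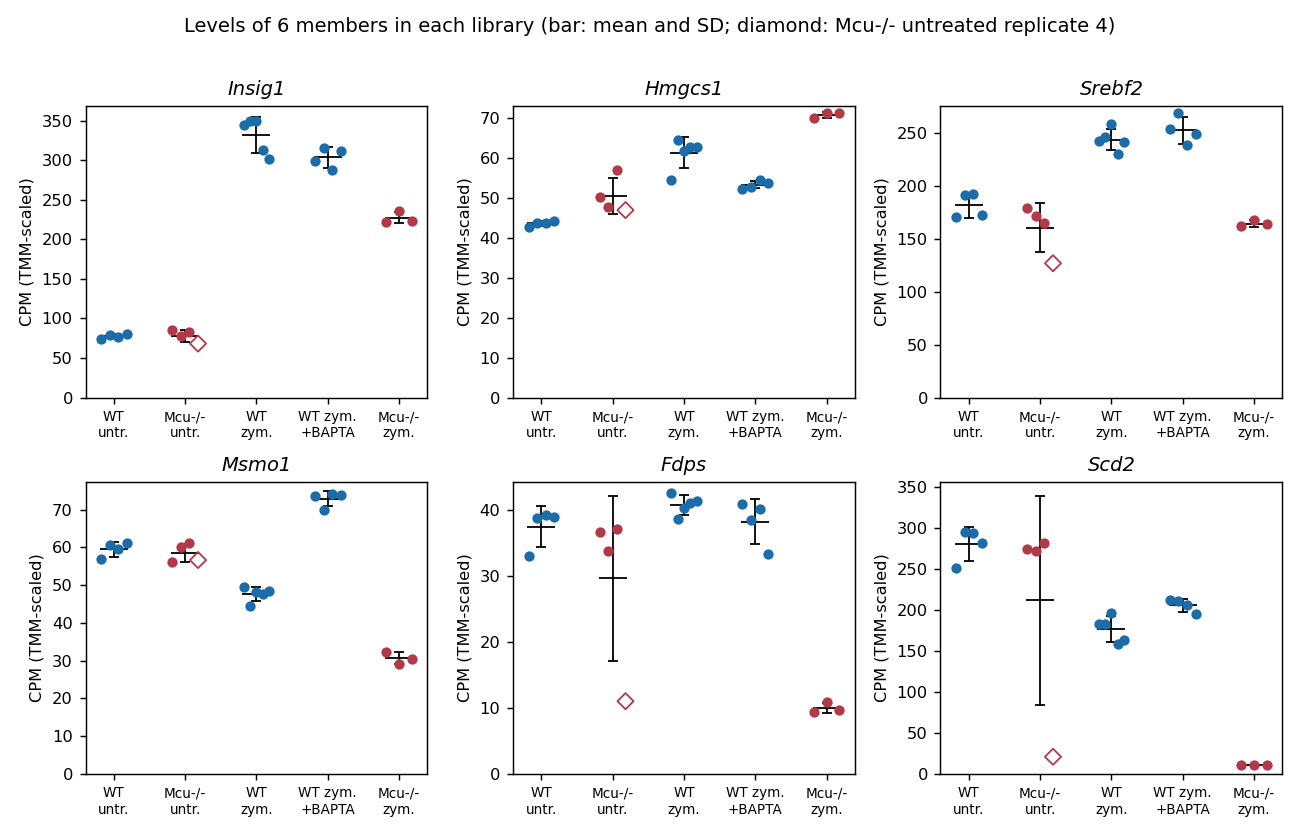
CPM (y axis, TMM-scaled, from 0) of Insig1, Hmgcs1, Srebf2, Msmo1, Fdps and Scd2 in each library of the 5 groups (x axis), with the group mean and SD as a bar and untreated Mcu-/- replicate 4 as an open diamond. Scd2 lies at 10.3 to 10.8 CPM in Mcu-/- zymosan libraries and at 158 to 196 CPM in WT zymosan libraries, and the diamond lies at 20.7 CPM.

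The next comparison set zymosan-treated Mcu-/- cells against zymosan-treated WT cells. Untreated Mcu-/- replicate 4 also read low in most of these genes, as given below. An effect of the genotype therefore cannot be told apart from something else shared by replicate 4 and the zymosan-treated Mcu-/- libraries. Here most members were lower, 27 of 34, and 2 were higher (edgeR adjusted p under 0.05). Of all genes 62.1% were called (31.8% higher and 30.3% lower). The arms differed in their shares. Of 18 sterol synthesis enzymes 16 were lower and 1 higher (94.4% called). Of 9 genes of fatty acid synthesis and desaturation 6 were lower and 0 higher (66.7% called). In the 4 genes of acetyl-CoA supply and fatty acid synthesis alone, 2 were lower (50% called). The members' median log2 difference was -0.67, beside 0.02 for all genes. In 29 members (85.3%) the ranges of the 2 groups were separate, beside 64% of all genes. The same counts, 27 and 2, were obtained without untreated Mcu-/- replicate 4 (beside 70.1% of all genes called, 36.4% higher and 33.7% lower), with DESeq2 and under library totals.

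The deepest differences were in desaturation. Scd2 read 183, 183, 196, 158 and 163 CPM in WT zymosan libraries and 10.8, 10.5 and 10.3 CPM in Mcu-/- zymosan libraries. The groups were far apart, 16.8-fold lower in Mcu-/- (log2 -4.07 ± 0.55, adjusted p = 7.77e-06). The gene lies at chr19:44293674-44306864 (GRCm38, GENCODE annotation). Fads2, the delta-6 desaturase, read 7.18, 7.44, 8.82, 5.15 and 6.04 CPM in WT and 0.294, 1.19 and 0.696 CPM in Mcu-/- (9.44-fold lower, log2 -3.24 ± 0.60, adjusted p = 1.55e-04). Its neighbour in function Fads1 was lower by less, at 30.4, 32.6 and 29.8 CPM in Mcu-/- (log2 -0.53 ± 0.11). Scd1 was lower too (-1.65 ± 0.31), at a level of at most 2.4 CPM in any library. Elovl6 did not pass (-0.01 ± 0.16).

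All 7 mevalonate enzymes passed, and 6 of them were lower. Fdps, farnesyl diphosphate synthase, read 42.5, 38.5, 40.2, 41 and 41.4 CPM in WT and 9.42, 10.9 and 9.65 CPM in Mcu-/- (4.08-fold lower, log2 -2.03 ± 0.27, adjusted p = 5.48e-06). No library of either group came near the other. Some 26.7% of the Fdps exon bases overlap another annotated gene, so the counting of reads there is uncertain. The overlap was 18.3% for Fdft1, 13.2% for Scap and 12.1% for Hmgcs1 and Tm7sf2, and smaller in some other members. Mvd (-1.66), the cytosolic thiolase Acat2 (-1.60), Idi1 (-1.33), Pmvk (-1.06) and Mvk (-0.73) were lower. Hmgcs1 was the exception in this arm, at 69.9, 71.3 and 71.3 CPM in Mcu-/- against 54.6 to 64.5 CPM in WT (log2 0.21 ± 0.06, adjusted p = 0.00399). Of the squalene-to-cholesterol enzymes 10 of 11 were lower, from Lss, lanosterol synthase (-1.24), and Cyp51 (-1.07) to Tm7sf2 (-0.47), and Ebp did not pass (0.10). The call on Tm7sf2 was lost without the Mcu-/- zymosan library numbered 5.

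Among regulators, Srebf2 was lower, at 162, 168 and 163 CPM in Mcu-/- against 230 to 258 CPM in WT (log2 -0.57 ± 0.08, adjusted p = 1.68e-05). Srebf1 was lower by less, at 45, 47.4 and 47.7 CPM against 59.4 to 62.7 CPM (log2 -0.38 ± 0.12, adjusted p = 0.013). Insig1 read 223, 235 and 224 CPM against 301 to 350 CPM (log2 -0.54 ± 0.07, adjusted p = 2.57e-06). In none of these 3 genes did the groups overlap. Stard4 (-0.96) and Mbtps1 (-0.47) were lower, and Insig2 did not pass (-0.07). Scap was the one regulator that was higher, at 29.6, 33.4 and 30.7 CPM against 23 to 26.6 CPM (log2 0.35 ± 0.07, adjusted p = 2.28e-04). Of the lipogenic genes, Fasn (-1.19 ± 0.17) and Acaca (-0.57 ± 0.10) were lower, while Acly (0.04 ± 0.04) and Acss2 (-0.17 ± 0.12) did not pass. Acly ranged from 177 to 199 CPM over all 20 libraries.

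Marker genes moved with this difference. The macrophage marker sum was 9075 to 9343 CPM in Mcu-/- zymosan libraries and 15000 to 15276 CPM in WT zymosan libraries. The markers did not move together. Lyz2 (mean 3242 against 8183 CPM), Adgre1 (2840 against 4920 CPM) and Itgam (275 against 869 CPM) read lower in Mcu-/- zymosan libraries. Cd68 (1158 against 309 CPM), Csf1r (1080 against 562 CPM), Fcgr1 (573 against 212 CPM) and Mertk (76 against 60.6 CPM) read higher. The sum of 6 adipocyte and stromal markers was 40.2 to 49.1 CPM in Mcu-/- zymosan libraries and 3.89 to 4.81 CPM in WT zymosan libraries, nearly all of it from the collagen genes Col1a1 and Col1a2, with Adipoq, Plin1, Cfd and Pdgfra below 1 CPM in every library. The part of other cells in the members' differences was not tested, and fewer cells of a type cannot be told apart from less RNA per cell in bulk samples.

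**Figure D3:**
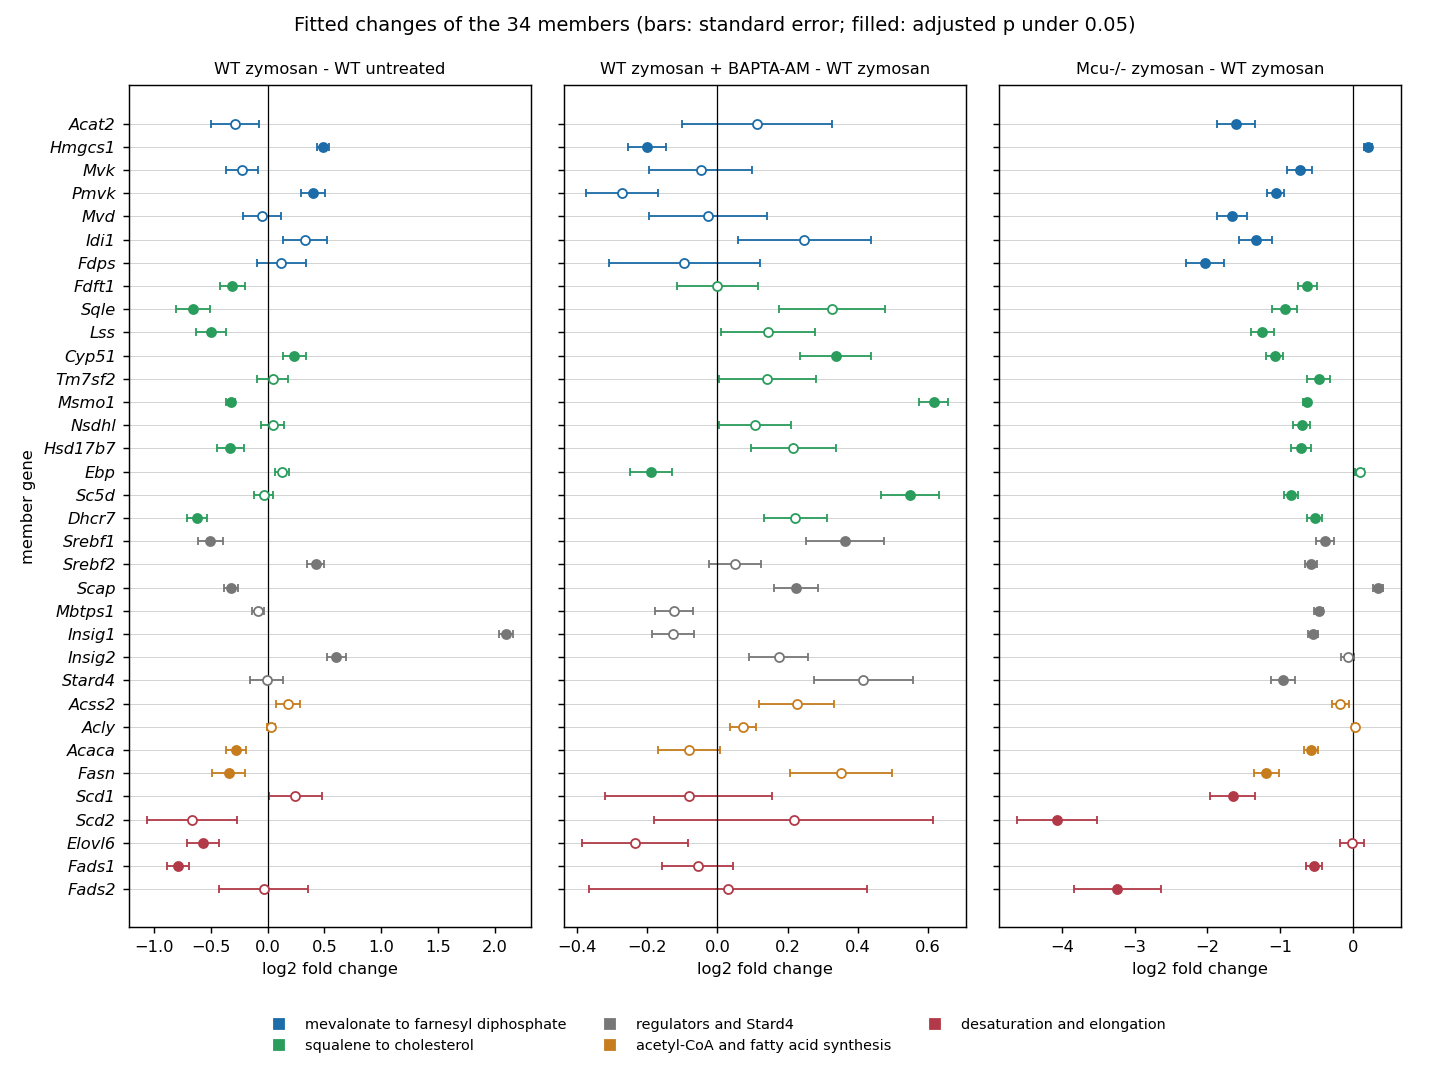
Fitted log2 fold change (x axis, bars are the standard error, each panel with its own scale) of each of the 34 members (y axis) in 3 comparisons, filled where the edgeR adjusted p is under 0.05. In the right-hand panel 27 filled points lie left of 0 and 2, Hmgcs1 and Scap, right of it.

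Without stimulation, the members of 3 of the 4 Mcu-/- libraries read like WT. Over the whole group of 4, edgeR and DESeq2 called 0 members in either direction (1 higher and 2 lower at an unadjusted p under 0.05 in edgeR), beside 0.35% of all genes (0.128% higher and 0.222% lower). Without replicate 4, 2 members were higher, Hmgcs1 (log2 0.24 ± 0.05) and Fasn (0.17 ± 0.04), beside 3.35% of all genes (1.53% higher and 1.83% lower). The ranges of the 2 whole groups were separate for 2 members, Hmgcs1 and Scd1, beside 7.09% of all genes. Hmgcs1 read 50.2, 47.8, 57 and 47 CPM in the Mcu-/- libraries, all above the 42.8 to 44.4 CPM of WT untreated libraries. The median log2 difference of the members from the WT untreated mean was 0.002, -0.003 and 0.04 in replicates 1 to 3, and -0.61 in replicate 4.

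Replicate 4 instead resembled the zymosan-treated Mcu-/- libraries in most of these genes. Scd2 read 274, 271 and 281 CPM in replicates 1 to 3 and 20.7 CPM in replicate 4. Fdps read 36.7, 33.7 and 37 CPM in replicates 1 to 3 and 11 CPM in replicate 4. Fads2 read 6.84, 6.01 and 6.83 CPM and then 0.436 CPM. In all 3 genes replicate 4 lay near or at the level of the Mcu-/- zymosan libraries and far below the rest of its own group. The difference between replicate 4 and the WT untreated mean had the same sign as the difference between Mcu-/- and WT zymosan means in 33 of 34 members (Pearson r = 0.95 over 34 members), and in 78.8% of 11707 genes (r = 0.79 over those genes). Scd2 and Fads2 lay far from the other members and weigh on the Pearson value. By rank, Spearman's rho was 0.87 for the members and 0.72 for all genes tested. The same comparison with the mean of replicates 1 to 3 gave the same sign in 14 of 34 members (r = 0.24) and in 51.1% of genes (r = -0.05). These pairs of differences share no library, while the members share their regulation and are not independent points. The markers moved likewise: in replicate 4 Col1a1 read 13 CPM and Col1a2 12.1 CPM, and at most 0.924 CPM in replicates 1 to 3.

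Some members, Insig1 among them, did not follow that pattern. Insig1 read 85.6, 77.3 and 82.5 CPM in untreated Mcu-/- replicates 1 to 3, 68.2 CPM in replicate 4, and 223 to 235 CPM in Mcu-/- zymosan libraries. Replicate 4 differed from the WT untreated mean by a log2 of -0.07 for Msmo1, -0.22 for Dhcr7 and 0.43 for Insig2. Between Mcu-/- and WT zymosan means the differences were -0.63, -0.53 and -0.07. Against replicate 4 alone the rise of Insig1 in Mcu-/- cells was 3.33-fold, with 1 library and no test. The difference between the Mcu-/- zymosan mean and replicate 4 had a median of -0.22 over the members, against -0.94 when replicates 1 to 3 were the reference and -0.05 for WT zymosan against WT untreated means. Whether the low levels belong to the Mcu genotype, to stimulation, or to something else shared by replicate 4 and the 3 Mcu-/- zymosan libraries cannot be told apart with these groups.

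**Figure D4:**
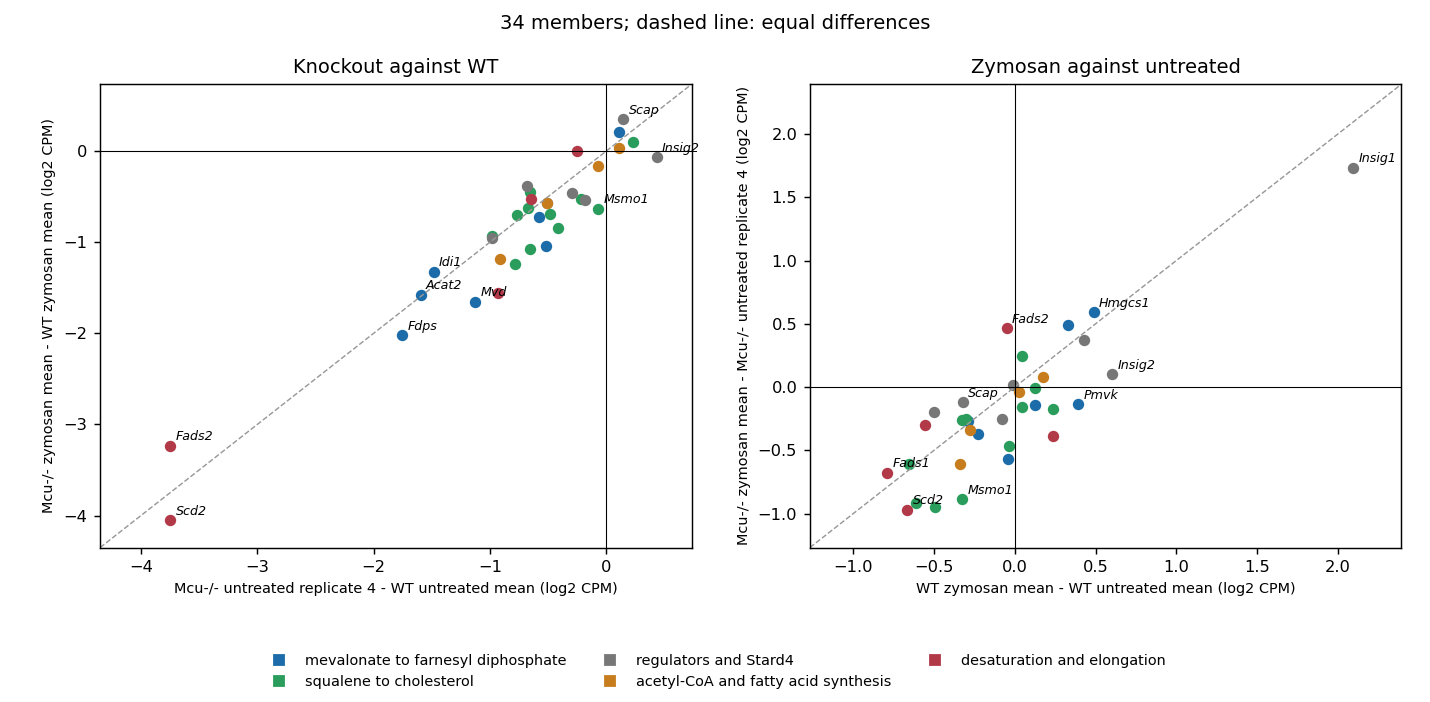
Differences in mean log2 CPM for the 34 members, coloured by role. The left panel sets Mcu-/- zymosan minus WT zymosan (y axis) against untreated Mcu-/- replicate 4 minus WT untreated (x axis), and 33 members have the same sign on both axes. The right panel sets Mcu-/- zymosan minus untreated Mcu-/- replicate 4 (y axis) against WT zymosan minus WT untreated (x axis), with Insig1 at the upper right.

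The zymosan response within Mcu-/- cells depended on which untreated libraries were used. With all 4, 25 members fell and 3 rose, beside 73.8% of all genes called (39.4% lower and 34.3% higher). Without replicate 4, 25 fell and 5 rose, beside 81.5% (42.4% lower and 39.2% higher). Insig1 (log2 1.54 ± 0.07), Hmgcs1 (0.49 ± 0.06) and Insig2 (0.41 ± 0.10) were the 3 that rose. Under library totals, which moved the median of all genes by -0.52 here, Hmgcs1 (-0.036) and Insig2 (-0.11) turned direction, and 1 member (Insig1) was higher and 31 lower. Scd2 (-4.33 ± 0.56), Acat2 (-1.65 ± 0.27) and Lss (-1.60 ± 0.16) led the falls among members at 5 CPM or more whose libraries did not overlap. Replicate 4 kept Fads2 (-2.78) out of that order by its overlap. Without replicate 4 the falls were -4.71 for Scd2, -3.16 for Fads2, -1.91 for Acat2, -1.84 for Fdps and -1.76 for Lss. The difference of the 2 genotypes' zymosan responses, tested as an interaction, passed for 24 members, 23 more negative in Mcu-/- cells and 1 (Scap) more positive, beside 35.2% of all genes (20% lower and 15.2% higher). It passed for 27 members without replicate 4, 26 more negative and 1 more positive, beside 60.3% of all genes (29.3% lower and 31% higher). Median interaction was -0.58 for the members and -0.01 for all genes, and -0.67 and 0.01 without replicate 4. The calls on Fdft1, Mvk and Hsd17b7 were lost when any 1 of 11, 9 and 7 of the 20 libraries was left out. For Hmgcs1 the interaction did not pass (-0.003 with all 20 libraries), so a different response was not detected in this gene. Insig1 rose less in Mcu-/- cells (-0.56 ± 0.09, adjusted p = 2.04e-04). The interaction values depend on the untreated Mcu-/- reference. Against replicate 4 alone, with 1 library and no test, the members' median zymosan difference in Mcu-/- cells was -0.22, beside -0.05 in WT cells.

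BAPTA-AM during zymosan exposure addressed the effect of clamping cytosolic calcium in WT cells. No untreated library received BAPTA-AM, so an effect on resting levels cannot be told apart from an effect on the zymosan response. Several late sterol enzymes were higher with the chelator, and Hmgcs1 was lower. In edgeR 5 members were higher and 2 lower, beside 12.8% of all genes called (6.43% higher and 6.33% lower), so 20.6% of members were called. Without untreated Mcu-/- replicate 4, 13 were higher and 5 lower (52.9%), beside 31.8% of all genes (15.3% higher and 16.5% lower). The ranges of the 2 groups were separate for 14 members (41.2%), beside 24.3% of all genes. The members' median log2 difference was 0.11, beside 0.0005 for all genes.

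Msmo1, the sterol C4 methyl oxidase, changed most. It read 49.4, 44.5, 48.1, 47.6 and 48.3 CPM with zymosan and 73.7, 69.9, 74.3 and 74 CPM with zymosan and BAPTA-AM. Every library with the chelator was above every one without, and above the 56.8 to 61.3 CPM of WT untreated cells (log2 0.62 ± 0.04, edgeR adjusted p = 2.12e-08). Sc5d, the sterol C5 desaturase, read 37.8, 37.2, 38.9, 42.7 and 38.5 CPM without and 54.6, 55.4, 59.7 and 58.4 CPM with the chelator (log2 0.55 ± 0.08, adjusted p = 1.7e-04). Cyp51 was higher by a log2 of 0.34 ± 0.10 (adjusted p = 0.0329), a call lost when any 1 of 7 of the 20 libraries was left out. Srebf1 read 77.3, 82.1, 77.9 and 75.7 CPM with the chelator and 59.4 to 62.7 CPM without, closer to the 79.6 to 90.7 CPM of untreated cells (log2 0.36 ± 0.11, adjusted p = 0.0375). That call was lost when any 1 of 9 of the 20 libraries was left out and with DESeq2 size factors. Scap was higher (0.22 ± 0.06), from 23 to 26.6 CPM without to 26.9 to 30.6 CPM with the chelator, a call lost when any 1 of 4 libraries was left out. Srebf2 did not pass (0.05 ± 0.07), and Insig1 read 298, 316, 288 and 312 CPM with the chelator, overlapping the 301 to 350 CPM without it (-0.13 ± 0.06). Insig2 did not pass either (0.18 ± 0.08). Without untreated Mcu-/- replicate 4, Insig1 (-0.13), Mbtps1 (-0.12) and Pmvk (-0.27) were called lower too. Insig2 (0.17), Stard4 (0.41), Sqle (0.33), Idi1 (0.25), Dhcr7 (0.22) and Hsd17b7 (0.21) were then called higher.

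Hmgcs1 was lower with BAPTA-AM, at 52.3, 52.9, 54.5 and 53.9 CPM against 54.6 to 64.5 CPM (log2 -0.20 ± 0.05, adjusted p = 0.0165). The groups were adjacent, with the highest BAPTA-AM library just below the lowest zymosan library. The call on Hmgcs1 was lost without BAPTA-AM replicate 1, with the replicate number as a block and under library totals (-0.14). Ebp, the sterol isomerase, was lower by 0.19 on the log2 scale (log2 -0.19 ± 0.06, adjusted p = 0.0491), a call lost when any 1 of 16 of the 20 libraries was left out. None of the 9 fatty acid and desaturation genes passed in edgeR, with 2 higher at an unadjusted p under 0.05, and Fasn and Scd2 were called higher without untreated Mcu-/- replicate 4 (0.35 and 0.22). Fasn read 82.7, 94.2, 90.3 and 84 CPM with the chelator and 66.5 to 72 CPM without, with no overlap. The counts moved with single libraries: 2 members were higher without WT zymosan replicate 1 or 3 or BAPTA-AM replicate 2 or 4, and 3 without WT zymosan replicate 2 or BAPTA-AM replicate 1 or 3. The count lower was 0 without BAPTA-AM replicate 1, 2 without untreated Mcu-/- replicate 1 or WT zymosan replicate 3 or 5, 5 without untreated Mcu-/- replicate 4 and 1 without any other library. Under library totals, 9 members were higher and 0 lower.

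Both comparisons with WT zymosan cells called Msmo1 (log2 difference 0.62 with BAPTA-AM and -0.63 in Mcu-/- cells), Sc5d (0.55 and -0.85), Cyp51 (0.34 and -1.07) and Srebf1 (0.36 and -0.38), of which the BAPTA-AM calls on Cyp51 and Srebf1 were the less stable, as given above. Hmgcs1 had the opposite pair of signs (-0.20 and 0.21), and its BAPTA-AM call was also lost in some settings, as given above. Scap was higher in both (0.22 and 0.35). These comparisons share the 5 WT zymosan libraries, so they are not independent of each other, and Msmo1 in untreated Mcu-/- replicate 4, at 56.7 CPM, read close to the 56.8 to 61.3 CPM of WT untreated libraries.

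A further 42 genes of the same pathways were read in the same fit. Of 25 further synthesis, elongation and acyl-CoA genes 23 were tested. In WT cells with zymosan, 9 rose and 4 fell (56.5% called, beside 69.1% of all genes). Without untreated Mcu-/- replicate 4, 11 rose and 8 fell (82.6%, beside 78.5%). Acsl1, a long-chain acyl-CoA synthetase, rose by 0.87 on the log2 scale, while Gpam (-1.69), which starts triglyceride synthesis, and Acsl3 (-1.54), another acyl-CoA synthetase, fell. In zymosan-treated Mcu-/- against WT cells 9 were higher and 10 lower (82.6%, beside 62.1% of all genes), with a median of -0.11 beside 0.02 for all genes. Acsl5 (-1.30) was among the lower ones and Hacd2 (0.93) among the higher.

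Of 17 genes of sterol sensing, esterification, lysosomal release and efflux, all were tested. In WT cells with zymosan 7 rose and 6 fell (76.5%, beside 69.1% of all genes), and 7 rose and 9 fell without untreated Mcu-/- replicate 4 (94.1%, beside 78.5%). Ch25h, cholesterol 25-hydroxylase, rose from 26.3, 25.2, 24.9 and 25.7 CPM to 87.7, 84.3, 87.5, 88.7 and 85 CPM (log2 1.76), and the efflux transporters Abca1 (-0.75) and Abcg1 (-0.56) fell. With BAPTA-AM, Ch25h was lower, at 57.4, 52.3, 57.4 and 61.4 CPM (-0.60). In zymosan-treated Mcu-/- against WT cells 10 were higher and 5 lower (88.2%, beside 62.1% of all genes), with a median of 0.30. Lipa, lysosomal acid lipase, read 1257, 1239 and 1213 CPM against 377 to 407 CPM (log2 1.66), and Npc2, which hands lysosomal cholesterol to NPC1, was higher by 1.20. Mylip, a ubiquitin ligase for lipoprotein receptors and a target of liver X receptors, was higher by 1.70, whereas the LXR targets Abca1 (-0.51) and Abcg1 (-0.82) and the oxysterol-forming Cyp27a1 (-1.75) were lower. Untreated Mcu-/- replicate 4 again read like the zymosan-treated Mcu-/- libraries for Lipa (1409 CPM, beside 460 to 463 CPM in replicates 1 to 3).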

How the data were processed

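Bulk RNA-seq was made from BMDMs (total RNA, libraries built by a sequencing service). Per the methods and labels, the authors trimmed adaptors (cutadapt), mapped the read pairs with STAR (build mm10) and counted reads per gene with HTSeq, and the deposited values are raw read counts (versions, annotation and strand setting not given in the sources used here). The 34 members, the further lists and the tests were chosen with earlier results of these data known. Columns were matched to samples by title, except that the Mcu-/- zymosan columns are numbered 3 to 5 and their titles 1 to 3, so these were used as a group without numbers.

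Genes were filtered with filterByExpr, leaving 11707 of 21963, scaled by TMM, and fitted in 1 edgeR quasi-likelihood model over all 20 libraries with a coefficient per group (edgeR 4.0.16, limma 3.58.1, R 4.3.3). Adjusted p-values are Benjamini-Hochberg over all genes tested, with calls under 0.05. CPM are TMM-scaled, and log2 levels of single libraries use a prior count of 2. Values are mean ± SD over libraries, or log2 fold change ± SE. Named members were the 3 largest rises and 3 largest falls called in a comparison with at least 5 CPM in 1 group and no overlap of libraries, with Srebf1, Srebf2, Scap, Insig1 and Insig2 throughout; other members are given by value as their role is described, and so were chosen with values seen. On simulated counts for the zymosan comparison (11483 genes), 200 of 200 genes changed by 2-fold were recovered by edgeR and by DESeq2 1.42.0, with 11 and 12 false calls. The simulated spread was smaller than the 12.4% of the fit, no simulated library stood apart, and genes with few counts were not changed. Recovery under the spread of the real libraries was therefore not tested. Gene positions and exon lengths came from the GENCODE annotation of GRCm38, and promoter windows from RefSeq. Alternatives were DESeq2, its size factors, library totals, no filter on low counts, each comparison's groups alone, a replicate block and leaving out each library. Same-numbered libraries of different groups did not deviate together (r -0.055 to 0.061 over 24 pairs), so replicate numbers were not taken as pairs.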

Additional observations from a re-analysis of the deposited data

Results flagged for a closer look

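A sample was listed here when it lay far from the others of its group (Dixon's ratio for groups of 4 or 5 libraries, which chance flags in about 1 in 20 groups), over 136 combinations of member and group. Of 21 such values, 12 fell on untreated Mcu-/- replicate 4. It was low for Acat2 (4.84 CPM, others 14.7 to 15.4), Mvd (8.37, others 17.8 to 19.3), Idi1 (8.01, others 22.7 to 24.1), Fdps (11, others 33.7 to 37), Cyp51 (30.4, others 48.9 to 50.2) and Nsdhl (13.7, others 19.9 to 20.4). It was also low for Hsd17b7 (14.3, others 23.7 to 24.9), Srebf1 (53.4, others 89.3 to 95.9), Fasn (46.2, others 93.7 to 103), Scd2 (20.7, others 271 to 281) and Fads2 (0.436, others 6.01 to 6.84), and high for Insig2 (27.3, others 20 to 21.2).

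The other 9 values were spread over 6 libraries. WT zymosan replicate 1 was low for Hmgcs1 (54.6 CPM) and high for Pmvk (19.1 CPM). WT untreated replicate 1 was low for Fdps (32.9 CPM) and Fads1 (72 CPM), and WT untreated replicate 2 for Elovl6 (2.67 CPM). BAPTA-AM replicate 2 was low for Msmo1 (69.9 CPM) and high for Dhcr7 (20.9 CPM), BAPTA-AM replicate 3 was high for Fdft1 (21.4 CPM), and untreated Mcu-/- replicate 1 was low for Acss2 (5.95 CPM).

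The zymosan response differed between genotypes for 24 members in edgeR's interaction test, each value being the log2 response in Mcu-/- minus that in WT cells. In the mevalonate arm it was -1.36 for Acat2, -0.63 for Mvk, -0.87 for Pmvk, -1.46 for Mvd, -1.12 for Idi1 and -1.69 for Fdps. From squalene to cholesterol it was -0.49 for Fdft1, -0.79 for Sqle, -1.10 for Lss, -0.97 for Cyp51, -0.61 for Msmo1, -0.65 for Nsdhl, -0.54 for Hsd17b7, -0.82 for Sc5d and -0.52 for Dhcr7. Among regulators it was -0.39 for Srebf2, 0.35 for Scap, -0.38 for Mbtps1, -0.56 for Insig1 and -0.81 for Stard4. Among lipid synthesis and desaturation genes it was -0.45 for Acaca, -1.15 for Fasn, -3.66 for Scd2 and -2.75 for Fads2. All of these use the 4 untreated Mcu-/- libraries, replicate 4 included, and depend on that reference. Against replicate 4 alone (1 library, no test), the Mcu-/- zymosan difference was -0.97 for Scd2 and 0.02 for Stard4, beside -0.67 and -0.01 in WT cells. For Lss and Cyp51 it was -0.94 and -0.17, beside -0.49 and 0.24 in WT cells. The calls on Fdft1, Mvk and Hsd17b7 were lost when any 1 of 11, 9 and 7 of the 20 libraries was left out, and Fads1 (-0.53), Srebf1 (-0.49) and Tm7sf2 (-0.59) also passed without replicate 4.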

How the results depend on the processing

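The 27 members lower and 2 higher in Mcu-/- zymosan against WT zymosan cells gave the same counts with DESeq2, its size factors, library totals, no filter on low counts and the groups compared alone (the replicate block could not be fitted for it), and 26 to 27 and 2 to 2 when 1 library was left out. Leaving out 1 library gave 0 to 2 higher and 0 to 0 lower for untreated Mcu-/- against WT, 3 to 5 higher and 24 to 25 lower for zymosan in Mcu-/- cells, 5 to 9 higher and 10 to 15 lower for zymosan in WT cells, 2 to 13 higher and 0 to 5 lower for BAPTA-AM, and 1 to 1 higher and 20 to 26 lower for the interaction. Untreated Mcu-/- replicate 4 gave the upper end of these ranges in each comparison where a count rose by over 1.5 times.

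Library totals gave 1 higher and 25 lower for zymosan in WT cells, 1 higher and 31 lower for zymosan in Mcu-/- cells, and 9 higher and 0 lower for BAPTA-AM. They reversed the log2 change in WT cells of Acly (-0.46), Acss2 (-0.31), Cyp51 (-0.26), Ebp (-0.37), Hmgcs1 (-0.00058), Nsdhl (-0.45), Pmvk (-0.091), Srebf2 (-0.066) and Tm7sf2 (-0.45), and in Mcu-/- cells of Acly (-0.47), Acss2 (-0.39), Ebp (-0.41), Hmgcs1 (-0.036), Insig2 (-0.11), Scap (-0.50) and Srebf2 (-0.49). This scaling moved the median of all genes by -0.49 in WT and -0.52 in Mcu-/- cells. DESeq2 called 5 members higher for zymosan in Mcu-/- cells. The groups compared alone gave 14 higher and 5 lower for BAPTA-AM, and no filter on low counts gave 1 lower.

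With the replicate number as a block (17 libraries, since Mcu-/- zymosan columns carry no matching numbers), 3 members were higher and 0 lower for BAPTA-AM, Cyp51 and Srebf1 no longer passing. The same 17 libraries with no block gave 1 lower. The numbers do not pair the libraries. In settings chosen after seeing the data, the block without untreated Mcu-/- replicate 4 gave 13 higher and 4 lower for BAPTA-AM and 1 higher for untreated Mcu-/- against WT. The groups compared alone without that library gave 2 higher there and 5 higher for zymosan in Mcu-/- cells. Fasn in untreated Mcu-/- against WT turned from a log2 of -0.04 to 0.17 without it, both alone and in the whole fit, and ran from -0.14 to 0.17 as each library was left out. The cause of these changes was not tested.

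Depth did not limit most members, since 1 CPM stood for at least 15.7 reads, but Scd1, Fads2 and Elovl6 had as few as 7, 5 and 25 reads in a library.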
